A study of Solanum lycopersicum with 12 samples.

Results

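Heat shock proteins are molecular chaperones. The small heat shock proteins bind unfolding proteins and hold them in a form that can be refolded, and in plants they are made in several compartments, among them the cytosol, the chloroplast and the mitochondrion. Most of their genes are nearly silent in unstressed vegetative tissue and are induced by heat. HSP90 helps signalling proteins and receptors to reach their active form, and heat shock cognate proteins are family members that are made without stress.

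The probe sets described here were all those whose symbol in the annotation table of the array began with HSP or HSC, or was MTSHP. They numbered 6 of 10209 probe sets and stood for 6 genes, namely the small heat shock proteins HSP17.4, HSP17-6, HSP21 and MTSHP, and the HSP90 genes Hsp90-1 and HSC80. The annotation gave a symbol to 909 probe sets and none to the other 9300, so further family members may be on the array without a symbol.

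The samples were the third true leaves of tomato plants (Solanum lycopersicum cv. Ailsa Craig), 4 weeks old when the treatments began. Alethea is a commercial plant activator that holds the jasmonate analogue potassium dihydrojasmonate, sodium benzoate (a precursor of salicylic acid) and the amino acid arginine. The formulation used also held zinc, iron, manganese, copper, magnesium oxide and boron. Plants in group AS were sprayed with Alethea and watered 24 h later with 100 mM NaCl, plants in AW were sprayed with Alethea and then watered, plants in WS were sprayed with distilled water and then given NaCl, and plants in WW received water both times. Leaves were taken 48 h after the spray, 3 plants were pooled into each RNA extract, and each of the 4 groups was sampled on 3 occasions, which gave 12 Affymetrix Tomato Genome arrays. The leaf markers CAB4 (15.09 to 15.26) and PSBO (14.94 to 15.12) were high in all arrays, while the fruit genes E8 and RIN lay at 2.60 or below. The fruit marker EXP1 (5.46 to 7.82) and the root marker RSI-1 (8.84 to 11.35) were also read above the floor in these leaves. The fruit marker Psy1 was read at 7.77 or above in some probe sets and at 1.65 or below in another. The root marker ext1 lay at the floor (2.04 to 2.16). Values are log2 signals after GCRMA, a background correction and normalisation that leaves unexpressed probe sets near 2. The filter kept 7779 probe sets, each with a mean above 3.2 in at least 1 group, and among them were 5 of the 6 heat shock protein probe sets. The test was limma, in which arrays of the same occasion formed a block, and the threshold for a call was an adjusted p of 0.05.

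HSP17.4 encodes a small heat shock protein and had the largest change after Alethea of the 5 probe sets tested. In occasions 1, 2 and 3 its log2 signal was 3.95, 6.37 and 3.96 in AS leaves, 4.34, 3.99 and 3.97 in AW leaves, 3.57, 2.39 and 2.77 in WS leaves, and 4.17, 2.06 and 2.72 in WW leaves. The Alethea arrays of occasions 2 and 3 all lay above the water arrays of the same occasions, and in occasion 1 the water arrays were already near the level of the Alethea arrays. The AS arrays did not overlap the WS arrays, whereas AW and WW overlapped through the WW array of occasion 1. Group means were 4.76 ± 1.39 in AS, 4.10 ± 0.21 in AW, 2.91 ± 0.60 in WS and 2.98 ± 1.08 in WW (SD, n = 3 each). Only the Alethea groups carried HSP17.4 past the filter, since both water groups averaged less than 3.2, so that the size of its change is uncertain.

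**Figure D1:**
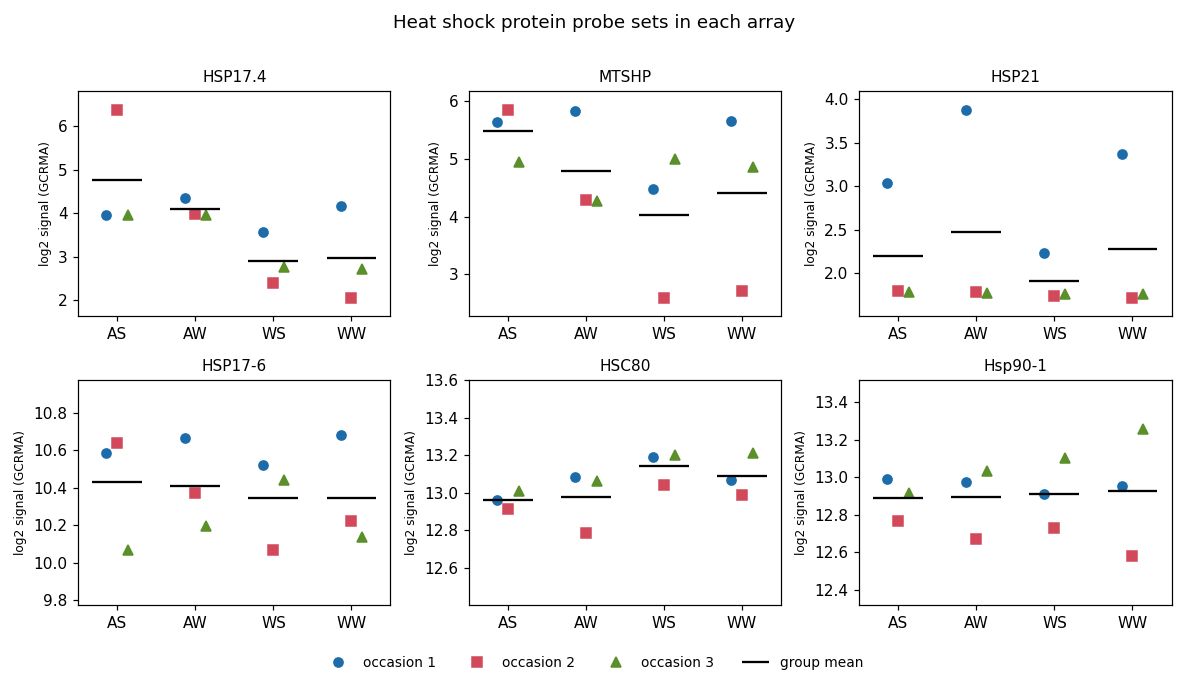
Log2 signal (GCRMA, vertical axis) of the 6 heat shock protein probe sets in the groups AS, AW, WS and WW, with 1 point per array, a marker for each occasion and a line at the group mean; the vertical scale differs between panels. HSP17.4 averaged 4.76 in AS and 4.10 in AW leaves against 2.91 in WS and 2.98 in WW leaves, and HSP21 left its floor in the arrays of occasion 1 only.

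The Alethea effect on HSP17.4, the mean of AS minus WS and AW minus WW, was 1.48 log2 units (SE 0.49, 95% interval 0.37 to 2.60) and was above 0 in 6 of 6 pairs of arrays. Its limma adjusted p was 0.0834, so HSP17.4 was not called. With salt, AS minus WS was 0.38, 3.98 and 1.19 in occasions 1, 2 and 3, and without salt AW minus WW was 0.18, 1.92 and 1.25. The change was thus smallest in occasion 1 in both comparisons. The AS array of occasion 2 was the highest of the 12 arrays. Without this array the Alethea effect was 0.95 (adjusted p = 0.0877), without all of occasion 2 it was 0.75 (adjusted p = 0.246), and without occasion 1 it was 2.09 (adjusted p = 0.0730). With the occasion not used as a block the effect of 1.48 had an adjusted p of 0.302, and without the filter on low values it had an adjusted p of 0.126. Rank Product, an algorithm that the study also used, was run here on the 6 within-occasion changes of every probe set, pooled over both main treatments. It called HSP17.4 higher after Alethea with an estimated false discovery rate of 0.000809. Rank Product took the 6 changes as independent, though both changes of an occasion share its conditions. HSP17.4 was also tested only because its Alethea groups passed the filter, so this rate gives no further support for a change.

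MTSHP encodes the small heat shock protein of the mitochondrion, and its occasion means (3.86 to 5.40) spread as widely as its group means (4.03 to 5.48). In occasions 1, 2 and 3 it measured 5.64, 5.84 and 4.94 in AS leaves, 5.83, 4.28 and 4.27 in AW leaves, 4.48, 2.60 and 5.0 in WS leaves, and 5.66, 2.72 and 4.86 in WW leaves. The water arrays of occasion 2 were far below all others, and AS and WS overlapped, as did AW and WW. The Alethea effect was 0.92 (SE 0.45, 95% interval -0.10 to 1.93, limma adjusted p = 0.197), above 0 in 4 of 6 pairs. AS minus WS was 1.16, 3.25 and -0.06 and AW minus WW was 0.17, 1.57 and -0.59, so that MTSHP in occasion 3 was not higher after Alethea in either comparison. Without occasion 2 the Alethea effect was 0.17 (adjusted p = 0.808). Rank Product called MTSHP higher after Alethea with an estimated false discovery rate of 0.0480, just inside its limit of 0.05. It again took both changes of an occasion as independent.

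Several array measures moved with these changes. The bacterial hybridisation controls averaged 12.59 and 12.67 in the WS and WW arrays of occasion 2, which held the lowest values of HSP17.4 and MTSHP, and 11.04 to 11.88 in the other 10 arrays. The signal of the 3′ probe set of actin exceeded that of its 5′ probe set by 0.94 to 1.72 in Alethea arrays and by 0.54 to 0.86 in water arrays, with the larger gap after Alethea in 6 of 6 pairs. The same gap for GAPDH was 0.25 to 0.61 in Alethea arrays and 0.12 to 0.38 in water arrays. The part of RNA integrity or hybridisation in the changes of HSP17.4 and MTSHP was not tested. An extract of whole leaves also cannot tell a change within cells from a change in the share of cell types.

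**Figure D2:**
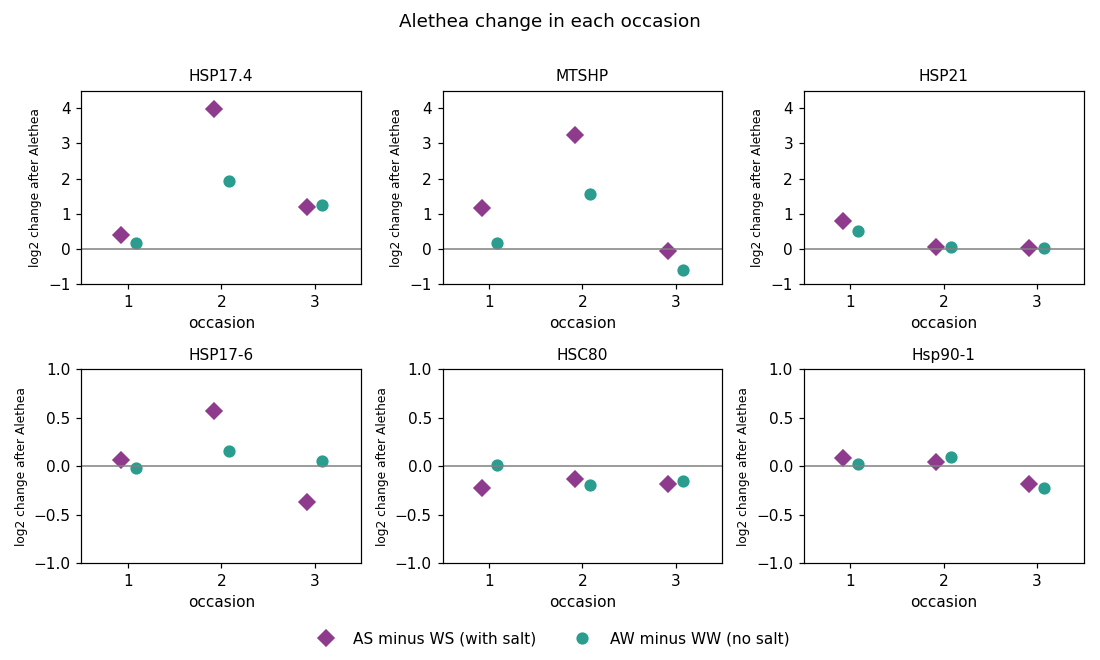
Log2 change after Alethea (vertical axis) of each heat shock protein probe set in occasions 1, 2 and 3 (horizontal axis), as AS minus WS (diamonds) and AW minus WW (circles); the upper row runs from -1 to 4.5 and the lower row from -1 to 1. HSP17.4 changed by 3.98 and 1.92 in occasion 2 against 0.38 and 0.18 in occasion 1, while HSC80 was below 0 in 5 of 6 pairs.

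HSP21 encodes the small heat shock protein of the chloroplast, which is known for protecting photosystem II in heat. Its signal was 3.03, 1.79 and 1.78 in AS leaves, 3.87, 1.78 and 1.78 in AW leaves, 2.24, 1.74 and 1.77 in WS leaves, and 3.37, 1.72 and 1.76 in WW leaves. All 8 arrays of occasions 2 and 3 lay at the floor, between 1.72 and 1.79, and the 4 arrays of occasion 1 lay between 2.24 and 3.87. No group reached a mean of 3.2, so HSP21 was left out by the filter and was not tested. Within occasion 1, AS exceeded WS by 0.79 and AW exceeded WW by 0.51, each a difference of 2 arrays with no replicate. In the same occasion the arrays with salt were the lower ones, AS by 0.84 below AW and WS by 1.13 below WW.

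HSP17-6, a further small heat shock protein, was measured far above the floor in every array. It gave 10.59, 10.64 and 10.07 in AS leaves, 10.66, 10.37 and 10.19 in AW leaves, 10.52, 10.07 and 10.44 in WS leaves, and 10.68, 10.22 and 10.14 in WW leaves. All 4 groups overlapped, and the 4 arrays of occasion 1 lay within 10.52 to 10.68. The Alethea effect was 0.08 (95% interval -0.19 to 0.34, adjusted p = 0.670), a narrower interval than that of HSP17.4.

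The HSP90 genes differed little between groups. HSC80 measured 12.96, 12.91 and 13.01 in AS leaves, 13.08, 12.79 and 13.06 in AW leaves, 13.19, 13.04 and 13.20 in WS leaves, and 13.07, 12.99 and 13.21 in WW leaves. The 3 AS arrays lay below the 3 WS arrays, and AW overlapped WW. The Alethea effect on HSC80 was -0.15 (SE 0.06, 95% interval -0.29 to -0.001), below 0 in 5 of 6 pairs, with an adjusted p of 0.154. Hsp90-1 measured 12.99, 12.77 and 12.91 in AS leaves, 12.98, 12.67 and 13.03 in AW leaves, 12.91, 12.73 and 13.10 in WS leaves, and 12.95, 12.58 and 13.25 in WW leaves. In each of the 4 groups the array of occasion 2 was the lowest for Hsp90-1. Its Alethea effect was -0.03 (95% interval -0.21 to 0.15, adjusted p = 0.835).

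Of the tested members, limma called 0 of 5 heat shock protein probe sets for Alethea, where it called 8.18% of all 7779 probe sets. At an unadjusted p under 0.05 there were 2, HSP17.4 and HSC80, which had opposite directions, against 31.9% of all probe sets. The median Alethea effect of the 5 was 0.08, against -0.003 over all probe sets. Rank Product called 2 of the 5, HSP17.4 and MTSHP, where it called 4.85% of all probe sets in either direction. The arrays of AS and WS did not overlap for 2 of the 5, HSP17.4 and HSC80, and did not overlap for 14.5% of all probe sets. HSP17.4 is counted here although it passed the filter only through the Alethea groups.

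**Figure D3:**
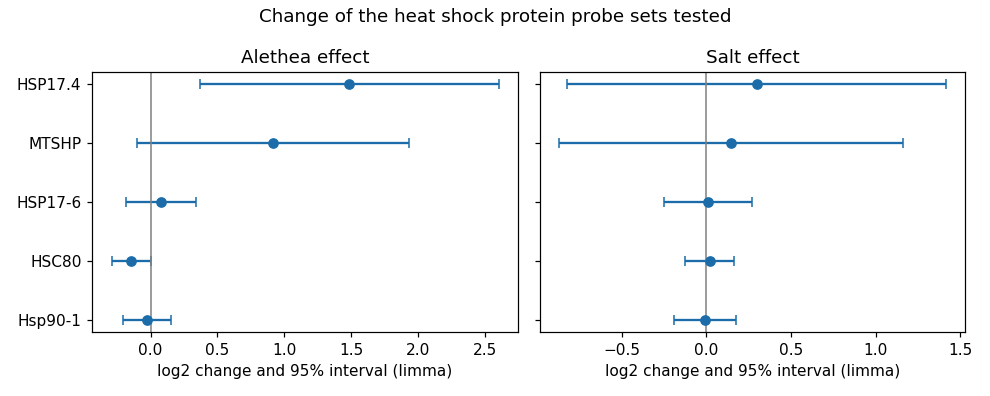
Log2 change and 95% interval from limma (horizontal axis) of the 5 heat shock protein probe sets tested, with the Alethea effect on the left and the salt effect on the right. The interval of HSP17.4 for Alethea runs from 0.37 to 2.60 and that of HSC80 from -0.29 to -0.001, while all 5 salt intervals span 0.

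Under salt, none of the 5 probe sets was called by limma, 0 had an unadjusted p under 0.05 and Rank Product called 0. The shares over all probe sets were 0.0386%, 14.0% and 2.96%. The salt effect, the mean of AS minus AW and WS minus WW, was 0.30 for HSP17.4 (95% interval -0.82 to 1.41, adjusted p = 0.844) and 0.15 for MTSHP (-0.87 to 1.16, adjusted p = 0.927). These intervals leave room for changes of about 1 log2 unit in HSP17.4 and MTSHP. For HSP17-6, HSC80 and Hsp90-1 the salt effects were 0.01 (-0.25 to 0.27), 0.02 (-0.13 to 0.16) and -0.01 (-0.19 to 0.17), and none of these intervals reached beyond 0.27 in either direction. HSP17.4 and MTSHP did not keep a direction under salt. For HSP17.4, AS minus AW was -0.39, 2.39 and -0.0016 in occasions 1, 2 and 3, and WS minus WW was -0.60, 0.33 and 0.06. For MTSHP, AS minus AW was -0.19, 1.56 and 0.67, and WS minus WW was -1.18, -0.12 and 0.14.

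In AS against WS, limma called 0 of 5 members and 0% of all probe sets, and 2 members, HSP17.4 (1.85, SE 0.69, adjusted p = 0.166) and MTSHP (1.45, SE 0.63, adjusted p = 0.211), had an unadjusted p under 0.05, against 23.4% of all. In AW against WW, limma called 0 of 5 members and 0% of all, with 0 members and 12.7% of all at an unadjusted p under 0.05. The AW minus WW change was 1.12 (SE 0.69, adjusted p = 0.510) for HSP17.4 and 0.38 (SE 0.63) for MTSHP. Both comparisons gave HSP17.4 a positive change with overlapping intervals of 0.27 to 3.43 with salt and -0.47 to 2.70 without it. In WS against WW, limma called 0 of 5 members and 0.0386% of all (0 members and 10.5% of all unadjusted). In AS against AW, it called 0 of 5 and 0% (0 members and 4.97% unadjusted). The interaction, which asks whether the Alethea change differed with salt, was called for 0 of 5 members and 0% of all probe sets (0 members and 2.17% unadjusted). It was 0.74 (SE 0.98) for HSP17.4 and 1.07 (SE 0.89) for MTSHP.

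The arrays were also compared by occasion. Occasion 1 minus the mean of occasions 2 and 3, a comparison chosen after the values had been seen, was above 0 for all 5 tested members. It was 1.09 (SE 0.47, adjusted p = 0.0844) for MTSHP, 0.48 (SE 0.52) for HSP17.4 and 0.35 (SE 0.12, adjusted p = 0.0403) for HSP17-6. HSP17-6 alone was called, 1 of 5, where 27.4% of all probe sets were called higher and 52.1% in either direction in occasion 1. With 1 array left out at a time, its call was kept without the AS array of occasion 2, when HSP17.4 (0.88) and MTSHP (1.38) were called too, and without the WS array of occasion 3, when MTSHP (1.31) was called too. Leaving out any 1 of the other 10 arrays ended it (adjusted p 0.0643 to 0.132). Each run with 1 array left out called 1785 to 2196 of all probe sets higher and 1603 to 1986 lower. Occasion 1 minus the mean of occasions 2 and 3 was 0.05 (SE 0.07) for HSC80 and 0.07 (SE 0.08) for Hsp90-1. Further probe sets, described below, went both ways in this comparison. It gave -1.37 for ER21, and -1.09, -0.60 and -2.92 for 3 probe sets named HSC70. For a further probe set named HSC80 it gave -0.50, and for a DnaJ-like one 3.40. HSP21, untested, averaged 3.13 in occasion 1, 1.76 in occasion 2 and 1.77 in occasion 3. Over the 12 arrays, HSP21 correlated with HSP17-6 (r = 0.71) and MTSHP (r = 0.57), and HSP17-6 correlated with MTSHP (r = 0.71). HSC80 and Hsp90-1 correlated with each other (r = 0.71), and HSC80 ran against HSP17.4 (r = -0.41). These correlations describe arrays that share occasions and treatments.

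The symbol probe sets most like HSP17.4 over the 12 arrays, among 701 kept by the filter, were LOC543949 (r = 0.82), vis1 (r = 0.81), ER5 (r = 0.80), ARPI (r = 0.76) and GPA1 (r = 0.75). Their Spearman rank correlations with HSP17.4 were 0.67, 0.93, 0.79, 0.49 and 0.66. The AS array of occasion 2 (6.37) stood far above the next array of HSP17.4 (4.34), so this 1 array weighs heavily on r. MTSHP stood at rank 12 (r = 0.72) and HSP17-6 at rank 25 (r = 0.59). The RefSeq gene table gives vis1 a small heat shock protein as synonym, and so brings vis1 into the family though its symbol does not. Its log2 signal was 2.74, 4.75 and 2.74 in AS leaves, 3.39, 2.76 and 2.76 in AW leaves, 2.73, 2.71 and 2.75 in WS leaves, and 2.76, 2.69 and 2.66 in WW leaves. The AS array of occasion 2 and the AW array of occasion 1 alone left the floor, and vis1 passed the filter only through AS, whose mean of 3.41 was carried by the array of occasion 2. Its likeness to HSP17.4 therefore compares values that are mostly at background. In the same table ER21 is a synonym of hsc70.3, a gene of the HSC70 kind, whose family folds newly made proteins. One of its 2 probe sets measured 8.26, 10.12 and 9.43 in AS leaves, 8.05, 9.29 and 9.11 in AW leaves, 7.52, 8.76 and 9.83 in WS leaves, and 7.52, 8.26 and 8.81 in WW leaves. Its Alethea effect was 0.59 (SE 0.22, adjusted p = 0.106), and its AS array of occasion 2 was again the highest. The other ER21 probe set and the small heat shock protein of the endoplasmic reticulum, ER-SHSP, stayed at the floor, at 2.15 to 2.37 and 1.95 to 2.06. These genes were added after their values had been seen.

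Further chaperones were looked for by symbol. The search found 4 probe sets of 3 genes and no heat shock factor, the class of transcription factor that switches on heat shock genes. Limma called 0 of the 4 for Alethea and 0 for salt, and 1 of them, an FKBP12 probe set, had an unadjusted p under 0.05 for Alethea, beside 8.18% of all probe sets called for Alethea, 0.0386% called for salt and 31.9% at that unadjusted p for Alethea. The Alethea effect was 0.14 (SE 0.09) for CPN21, which encodes a chloroplast co-chaperonin, 0.08 (SE 0.11) for CNX61.0, and 0.002 (SE 0.08) and 0.28 (SE 0.12, adjusted p = 0.155) for the FKBP12 probe sets. FKBP12 is an immunophilin of the peptidyl-prolyl isomerases.

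The additional files of the study, which describe probe sets chosen on these same arrays, name 8 more as heat shock cognate or DnaJ proteins, of which DnaJ proteins are co-chaperones of HSP70. They give no independent evidence of a direction. The calls and pair counts given below for these probe sets therefore add no support for a change. Of the 3 named for the same HSC70 protein, called here sets a, b and c, set a was higher after Alethea by 1.15 (SE 0.25, adjusted p = 0.0369) and set b was lower, at -0.70 (SE 0.13, adjusted p = 0.0307). Set a measured 9.38, 10.79 and 10.74 in AS leaves, 9.07, 10.40 and 10.82 in AW leaves, 8.29, 8.97 and 10.02 in WS leaves, and 8.85, 8.26 and 9.90 in WW leaves. Set b measured 11.92, 12.58 and 13.04 in AS leaves, 12.50, 12.58 and 13.07 in AW leaves, 12.88, 13.73 and 13.34 in WS leaves, and 12.96, 13.47 and 13.50 in WW leaves. Each was changed in its own direction in 6 of 6 pairs, so probe sets under 1 name moved in opposite directions. Whether they read transcripts of 1 gene, related genes or different stretches of a transcript was not tested. Set c had an Alethea effect of 0.75 (SE 0.39, adjusted p = 0.223). Rank Product called sets a and c higher (estimated false discovery rates 0.0015 and 0.0253) and set b lower (0.0498).

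**Figure D4:**
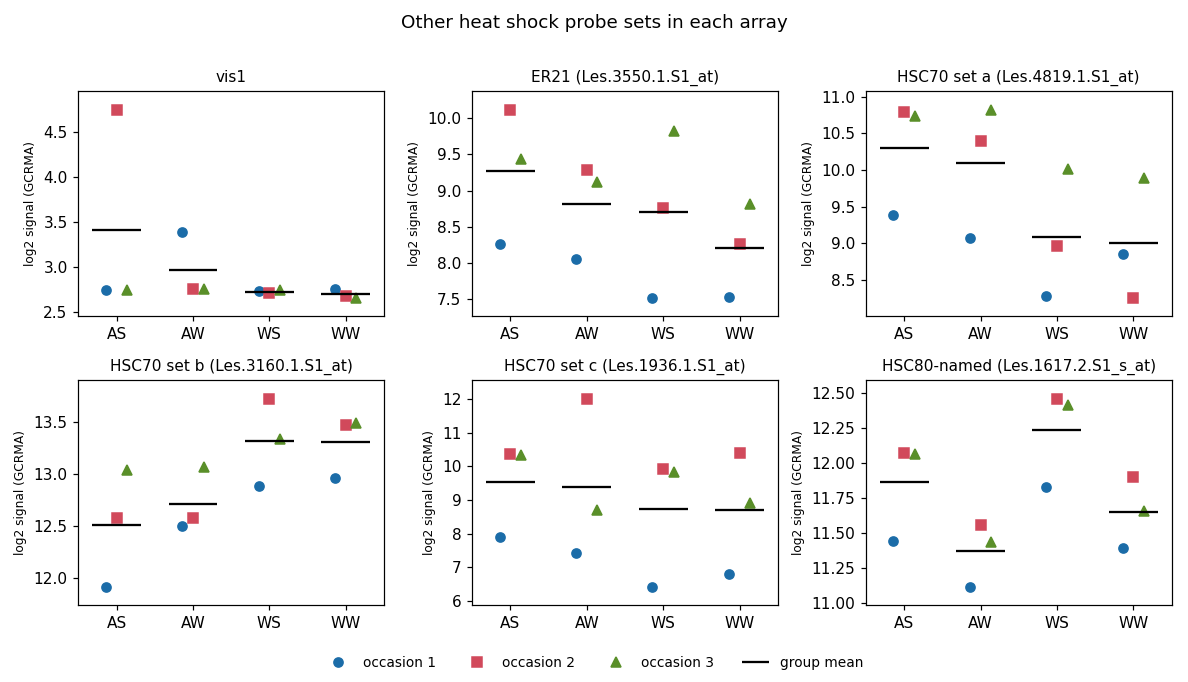
Log2 signal (GCRMA, vertical axis) of 6 further heat shock probe sets in the groups AS, AW, WS and WW, with 1 point per array, a marker for each occasion and a line at the group mean; the vertical scale differs between panels. After Alethea, HSC70 set a was higher by 1.15 and HSC70 set b had a change of -0.70, although both carry the same protein name.

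A further probe set carries the name of HSC80 in those files. It measured 11.44, 12.07 and 12.07 in AS leaves, 11.12, 11.56 and 11.44 in AW leaves, 11.83, 12.46 and 12.41 in WS leaves, and 11.39, 11.90 and 11.66 in WW leaves. In 6 of 6 pairs the array with salt was above its partner without it, and in 6 of 6 pairs the Alethea array was below its water partner. The Alethea effect was -0.33 (SE 0.07, adjusted p = 0.0398), beside -0.15 for the member HSC80, and the salt effect was 0.54 (SE 0.07, adjusted p = 0.0555), beside 0.02 for HSC80. Rank Product called it higher under salt (estimated false discovery rate 0.0416) and did not call it for Alethea (0.448). Among the 4 DnaJ and related probe sets, a DnaJ-like protein and a putative DnaJ domain protein fell after Alethea, at -0.79 (SE 0.15, adjusted p = 0.0307) and -0.73 (SE 0.18, adjusted p = 0.0477), each in 6 of 6 pairs. ARL1 had an Alethea effect of -0.59 (SE 0.19, adjusted p = 0.0770), above 0 in 1 of 6 pairs. Rank Product called these probe sets lower after Alethea (estimated false discovery rates 0.0072, 0.0247 and 0.041). A chloroplast dnaJ probe set had a salt effect of 0.98 (SE 0.18, adjusted p = 0.102), above 0 in 6 of 6 pairs, and an Alethea effect of -0.45 (SE 0.18, adjusted p = 0.126). Rank Product called this dnaJ probe set higher under salt, with an estimated false discovery rate of 0.0013. The DnaJ-like protein went the other way under salt, at -0.46 (SE 0.15, limma adjusted p = 0.242), above 0 in 0 of 6 pairs. The salt effect was 0.06 (SE 0.18) for the DnaJ domain protein and -0.13 (SE 0.19) for ARL1. None of the limma calls of these Alethea changes was kept when the values were averaged per pre-treatment and occasion, a fit in which limma called 0 of all 7779 probe sets. With 1 array left out at a time, the calls were kept in 3 of 12 cases for HSC70 set a, 4 for set b, 1 for the probe set named for HSC80, 2 for the DnaJ-like protein and 0 for the DnaJ domain protein, with the direction unchanged in all.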

How the data were processed

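Leaf RNA of 12 samples was labelled with biotin and hybridised to Affymetrix Tomato Genome arrays, 3 for each of 4 groups. The authors normalised the signals with GCRMA (version not given in the sources used here), which gave the deposited log2 values of 10209 probe sets, so that background correction and probe summary are theirs. Probe sets with a group mean above 3.2, the threshold of the study's methods, were kept (their number is not identical to the one stated there) and entered a linear model of 4 groups and 3 occasions in limma 3.58.1 (R 4.3.3, functions lmFit and eBayes), which left 6 residual degrees of freedom. P-values were adjusted by the Benjamini-Hochberg method over 7779 probe sets. Rank Product was run on 6 pairs per factor, a pooling chosen here, with 1000 permutations (Python 3.11.15, pandas 2.3.3, numpy 2.4.6). Figures used matplotlib 3.10.9. Both tests were tried on simulated data.

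Pairing by occasion follows the replicate numbers of the labels and the methods of the study. Between arrays of different groups, deviations from the group means correlated at 0.44 to 0.88 within an occasion (18 pairs). They correlated at -0.79 to 0.63 across occasions (36 pairs). As the deviations of a group add up to 0 over its occasions, the 2 ranges are not independent of each other. Every probe set of the rule was named. The members, lists and tests were chosen with earlier results of these data known. RefSeq names served for synonyms only, with 885 of 909 symbols matched by gene identifier, and neither sequences nor genome positions were used here. Symbols of 2 carotenoid genes that matched the search for chaperones were set aside. The limma p-values set a difference between groups against the spread left after the block had taken out the level of each occasion. This spread was pooled over all 4 groups and drawn towards that of all probe sets tested. It is thus not the variation of 1 difference over the 3 occasions. Both Alethea changes of an occasion entered as separate evidence, and so did both salt changes. Each array stands for 1 pool of 3 plants.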

Additional observations from a re-analysis of the deposited data

Results flagged for a closer look

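For ARL1, a probe set described as binding heat shock and unfolded proteins, salt changes had opposite directions in the presence and absence of Alethea. It is among the probe sets named in the additional files of the study. It was flagged because each direction held in all 3 occasions, so these directions add no support for a difference. AS minus AW was -0.80, -0.11 and -0.74 in occasions 1, 2 and 3, and WS minus WW was 0.11, 0.17 and 0.61. The interaction of Alethea and salt was -0.84 (SE 0.38), with an unadjusted p of 0.0555 and a limma adjusted p of 1.00, so that the difference did not pass the test.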

How the results depend on the processing

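The 7 treatment comparisons gave 0 members called by limma under every alternative run, among them no filter, a filter at 5, arrays centred or quantile normalised again, a prior with a trend, no occasion block, and each occasion or array left out (the single arrays were left out after the data had been seen). The stricter filter removed HSP17.4. Rank Product was the exception, with 2 members called for Alethea. By limma, the interaction was called for 0 of all probe sets in every run, and AS against AW for at most 1. Salt reached 17 higher and 18 lower, and WS against WW 2 higher and 3 lower, both with the trend prior. AW against WW reached 38 higher and 9 lower, and AS against WS 17 higher and 2 lower, both without occasion 1. The 0 members called in these comparisons thus says little about the members. Without the occasion block limma called 0 of all 7779 probe sets in each of the 7 comparisons, so the 0 members called there says nothing about the members, whose smallest adjusted p for Alethea was 0.302. The same holds for Alethea without occasion 2, without occasion 3, without the AW array of occasion 3 and with averaged values, where limma called 0 of all probe sets. Without the WW array of occasion 3 it called only 2 higher and 1 lower, and without the AW array of occasion 1 it called 562 higher and 549 lower. With values averaged per pre-treatment and occasion, the adjusted p of HSP17.4 was 0.247. The occasion comparison called 0 to 3 members with single arrays left out, and leaving out whole occasions was not run for it. The run that called 3, without the AS array of occasion 2, called 2016 higher and 1778 lower of all 7789 probe sets. Without the filter on low values this comparison called HSP21 (1.36, adjusted p = 0.0020) and no longer HSP17-6. That run called 2205 higher and 1899 lower of all 10209 probe sets.

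With an occasion or array left out, the Alethea effect was 0.75 to 2.09 for HSP17.4 (adjusted p 0.0597 to 0.292), 0.17 to 1.54 for MTSHP, -0.17 to -0.12 for HSC80, -0.0681 to 0.193 for HSP17-6 and -0.0743 to 0.0603 for Hsp90-1. The salt effect was -0.23 to 0.69 for HSP17.4, -0.25 to 0.56 for MTSHP, -0.0164 to 0.0444 for HSC80, -0.0815 to 0.0819 for HSP17-6 and -0.0757 to 0.0547 for Hsp90-1, and so changed sign in all of them. The salt effect also changed sign with arrays centred on their medians for HSP17-6 (-0.0080) and with quantile normalisation for Hsp90-1 (0.0141). The cause was not tested. Without the occasion block, no limma call for Alethea of the heat shock cognate or DnaJ probe sets was kept (adjusted p 0.302 to 0.814). Without the filter, the calls of HSC70 set a and the DnaJ domain protein were lost (adjusted p 0.0524 and 0.0673). HSP17.4, HSP21 and vis1 lay near the floor, where signal over background limits the size of a change.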
